A study of Mus musculus with 9 samples.

Results

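The genes described here are the 54 protein-coding genes of the mouse MAP kinase cascade, chosen by name from the 21951 protein-coding genes of GENCODE M21. They comprise all genes named Map2k, Map3k, Map4k or Mapk with a number, and those whose names begin with Mapkap or Mapkbp. SAFB peaks were assigned to them where the peak lay on the strand of the gene (a sense peak) and its midpoint fell within the annotated gene. By that rule 103 of the 30998 deposited peaks lay in these genes.

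MAP kinases are the last of a chain of protein kinases that pass signals from the cell surface or from stress to the nucleus. MAP4Ks act on MAP3Ks, MAP3Ks phosphorylate MAP2Ks, and MAP2Ks phosphorylate the MAP kinases themselves, with separate branches for the ERK, JNK and p38 kinases. In mouse embryonic stem cells, ERK signalling is known for promoting exit from the pluripotent state. SAFB1 is an RNA-binding protein of the nucleus.

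RNA was recovered by immunoprecipitation from mouse embryonic stem cells, male and CAST/B6 by strain with a Rosa26-RMCE locus, all of them given doxycycline for 3 days. SAFB1 antibody was used on wild-type cells (3 libraries: parent, clone 20 and clone 44) and on safb1/2 double-knockout cells (2 libraries: clones 4 and 13), and IgG on wild-type cells (2 libraries: parent and clone 20). FLAG antibody was used on double-knockout clone 13 carrying a SAFB1 plasmid (1 library) or an eGFP plasmid (1 library). For the library with the SAFB1 plasmid the genotype label (WT) and the title (double knockout) disagree, and its group follows the title. The data analysed are 1 list of peak positions for the whole series, without read counts or values per library, so antibodies and genotypes could not be compared, no value has replicates, and depth is unknown. RNA abundance was not measured here, and a gene without a peak may or may not have been transcribed. Of 18 markers of embryonic stem cells 4 held a sense peak (Esrrb, Klf5, Tfcp2l1 and Zfp42), which says nothing of their expression.

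SAFB peaks were found in 25 of the 54 MAP kinase cascade genes (46.3%, 95% Wilson interval 33.7 to 59.4), against 26.2% of all protein-coding genes. The members are long genes, with a median length of 43.1 kb against 17.4 kb over all protein-coding genes, and longer genes more often hold a peak: 69.2% of protein-coding genes of at least 120 kb did, and 10.3% of those under 20 kb. Each member was therefore set beside all other protein-coding genes within 10% of its length. Summed over the members, those shares amount to 21.01 genes with a peak, beside the 25 observed. Total peaks were 103 in the members, against 70.0 from genes of similar length, and 74 against 67.0 once Mapk4 was set aside. Apart from Mapk4, the members as a group thus held close to as many peaks as other genes of their length. Intervals cover counting error only, and no test was run, because the list has no replicates and genes are not replicates of a condition.

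**Figure D1:**
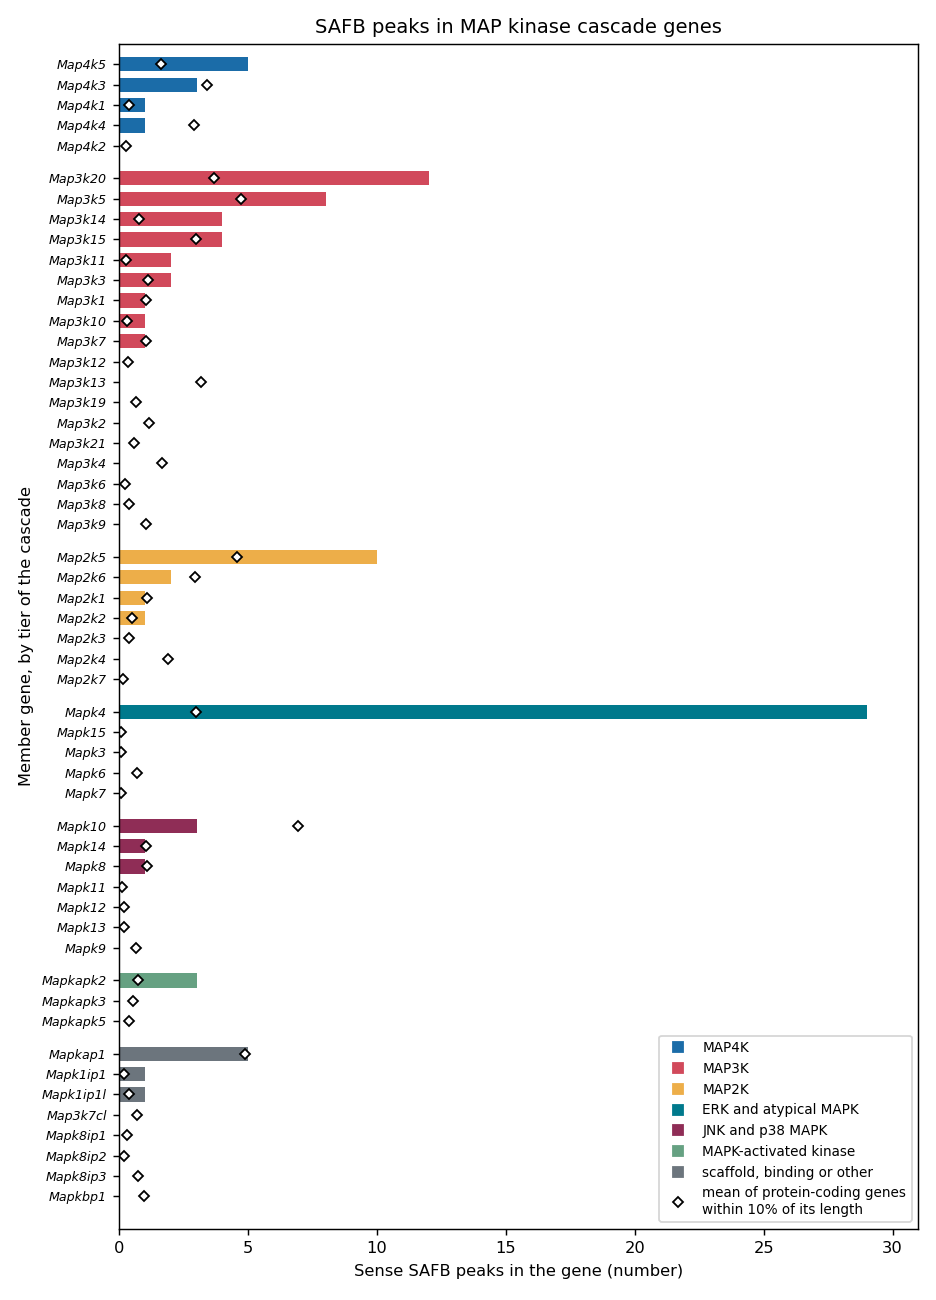
Bars give the number of sense SAFB peaks (x axis) in 53 of the 54 members (y axis, coloured by tier), and diamonds the mean number in protein-coding genes within 10% of the member's length. The bar of Mapk4 reaches 29 peaks, beside a diamond at 2.98.

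Peaks were concentrated in few members. Mapk4, Map3k20, Map2k5 and Map3k5 held 59 of the 103 peaks (57.3%). Exactly 1 peak was held by 11 members and 2 to 4 by 8. At least 5 were held by 6, including these named genes (11.1% of members, against 4.52% of all protein-coding genes). At least 2 peaks were found in 14 members (25.9%, against 13.8%). At least 10 peaks were found in 3 members (5.56%, against 1.8%). The median member held 0 peaks, as did the median protein-coding gene.

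Mapk4 was the member with most peaks. It encodes ERK4, an atypical MAP kinase that lacks the usual activation motif and is known for binding the kinase MK5. The gene (ENSMUSG00000024558.12; chromosome 18, 73928486 to 74065359, minus strand, mm10) held 29 sense peaks in 136.9 kb, or 212 per Mb. None of the 442 protein-coding genes within 10% of its length held as many. Their median was 2, and the highest count among them was 23, in Cradd. Of genes within 25% of its length, 0.0841% held as many or more. Among all protein-coding genes Mapk4 ranked 54 by number of peaks, a place shared with 6 others, and 20 by density when the 992 genes holding 5 or more were ordered.

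The 29 Mapk4 peaks were all intronic by midpoint, 1 of them reaching 145 bases into an exon, and ran through most of the gene. The first lay 12.4 kb and the last 128 kb from the gene start, and 4 equal parts of the gene held 5, 9, 8 and 7 peaks in order from the start. In the transcript Mapk4-201, intron 1 (93.6 kb) held 20 peaks and intron 2 (32.6 kb) held 9. These introns make up 92.2% of the gene. Peaks had a median width of 559 bases (74 to 2353) and covered 15.3% of the gene. Neighbouring peaks were separated by a median of 1982.5 bases, and 11 of the 28 gaps were under 1000 bases. The peaks ended with the gene. Windows of the gene's own length held 1 same-strand peak upstream, 128 kb away, and 0 downstream.

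The closest relative of Mapk4 held none. Mapk6, which encodes the other atypical kinase ERK3, is 40.9 kb long, and 35.8% of the 1023 genes of similar length held a peak. MK5 itself, encoded by Mapkapk5 (20.9 kb), also held none, where 24.3% of similar genes did. Mapk4 thus held 29 peaks and Mapk6 0, where genes of their lengths averaged 2.98 and 0.68.

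**Figure D2:**
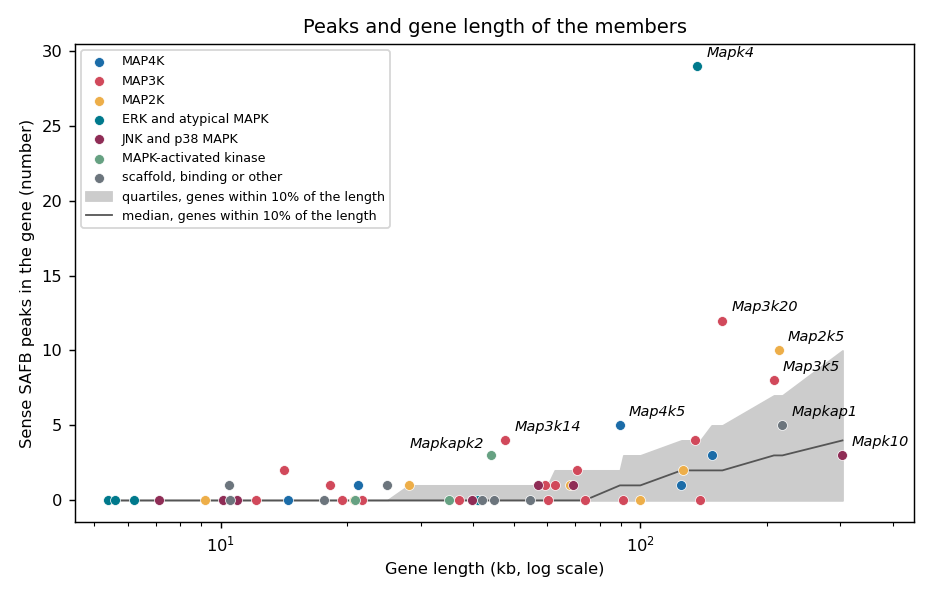
Sense SAFB peaks per member (y axis, number) against gene length (x axis, kb, log scale), with points for 53 members coloured by tier and a line and grey band for the median and quartiles of protein-coding genes within 10% of each member's length. Most members lie within or near the band, and Mapk4 lies at 29 where the median is 2.

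Other MAP kinases of the ERK branch included short genes without a peak. Mapk3 (6.22 kb), which encodes ERK1, a classical kinase of growth factor signalling, held none, nor did Mapk7 (ERK5, 5.60 kb) or Mapk15 (ERK7, 5.39 kb). Between 5.73% and 6.83% of genes of similar length held a peak. The ERK and atypical tier had 1 gene of 6 with a peak, beside 1.67 from genes of similar length, and all 29 of its peaks lay in Mapk4.

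JNK and p38 kinases, which respond to stress and cytokines, had 3 genes of 7 with a peak, beside 2.37 from genes of similar length. The tier held 5 peaks, beside 10.2, and 6.95 of the 10.2 came from genes of the length of Mapk10. Mapk10, the JNK3 gene and the longest member at 303 kb, held 3 peaks. Of the 175 genes of similar length, 104 held as many or more, and their median was 4 and their mean 6.95. Its peaks lay in the first 33.2% of the gene, 20.4, 68.3 and 100.6 kb from the start, and each was more than 10 kb from an annotated exon. Mapk8 (JNK1) held 1 peak of 133 bases, and Mapk9 (JNK2) none. Among the p38 genes, Mapk14 (p38 alpha; ENSMUSG00000053436.15; chromosome 17, 28691329 to 28748406, plus strand) held 1 peak of 671 bases, in intron 6. Mapk11, Mapk12 and Mapk13, which are 7.14 to 10.9 kb long, held none.

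MAP2Ks, the kinases with dual specificity that activate MAP kinases, had 4 genes of 7 with a peak and 14 peaks, beside 3.13 genes and 11.4 peaks from genes of similar length. Map2k5 (ENSMUSG00000058444.8; chromosome 9, 63163768 to 63377902, minus strand), which encodes MEK5, the activator of ERK5, held 10 of the 14. Among the 258 genes of similar length, 36 held as many or more (14.0%). Its peaks were narrow, with a median width of 255 bases and a range from 106 to 1901. Only 2 were as wide as the median of the whole list (596 bases), and counting such wide peaks alone, 44.6% of genes of similar length held as many or more. They were all intronic and spread over 8 introns of the transcript Map2k5-201, from 19.0 to 211 kb after the start, with 3 in the last and longest intron.

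The MAP2Ks of the ERK branch, Map2k1 (MEK1) and Map2k2 (MEK2), held 1 intronic peak each. Map2k6, a p38 activator, held 2 peaks in intron 1, both more than 35 kb from an exon. Its partner in the p38 branch, Map2k3, held none. The JNK activators Map2k4 (100.1 kb) and Map2k7 (9.16 kb) held none, although 62.8% of genes of the length of Map2k4 did.

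MAP3Ks, which receive the widest range of signals, were the largest tier. A peak was found in 9 of 18 genes, beside 7.84 from genes of similar length, and the tier held 35 peaks, beside 25.1. The highest counts were those of Map3k20 and Map3k5. Map3k20 encodes ZAK, a sensor of stalled ribosomes (ENSMUSG00000004085.14; chromosome 2, 72285637 to 72442610, plus strand), and held 12 peaks in 157 kb. Of the 389 genes of similar length, 21 held as many or more (5.40%). Map3k5 encodes ASK1, a sensor of oxidative stress (ENSMUSG00000071369.11; chromosome 10, 19934472 to 20142753, plus strand), and held 8 peaks in 208 kb. As many or more were found in 56 of 269 genes of similar length (20.8%). Of peaks at least 596 bases wide Map3k5 held 1, and 63.6% of genes of similar length held as many or more.

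Peaks of Map3k20 were wide and those of Map3k5 narrow. The Map3k20 peaks had a median width of 891.5 bases (187 to 2162), covered 7.84% of the gene, and fell in 8 introns and the last exon. Intron 8, of 5.41 kb, held 3 of them. The Map3k5 peaks had a median width of 318 bases (81 to 1027), covered 1.47% of the gene, and were all intronic. Intron 14 of Map3k5, of 11.9 kb, held 3 peaks within about 151 to 156 kb of the start. Upstream of Map3k20, the window of its own length held 9 same-strand peaks, all in the neighbouring gene Rapgef4, the nearest 32.9 kb from Map3k20.

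**Figure D3:**
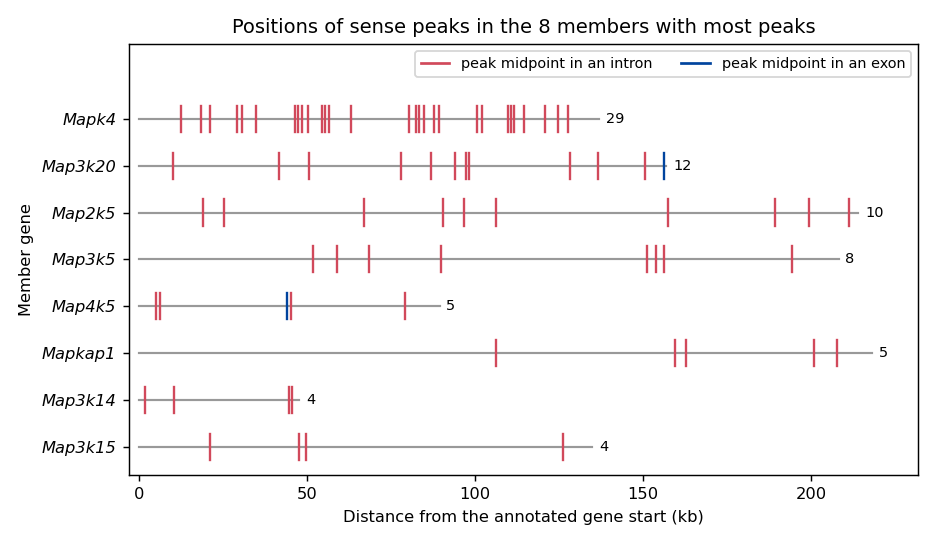
Midpoints of sense peaks (vertical marks) along the 8 members with most peaks, as distance from the annotated gene start in kb (x axis), with a grey line for the gene and the count of peaks at its right. Red marks are intronic and blue marks exonic, and the 29 marks of Mapk4 extend from 12.4 to 128 kb.

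Among the other MAP3Ks, Map3k14 held 4 peaks in 47.7 kb. It encodes NIK, a kinase of non-canonical NF-kappa-B signalling (ENSMUSG00000020941.7; chromosome 11, 103219762 to 103267472, minus strand), and 46 of 937 genes of similar length held as many or more (4.91%). Its peaks were all narrow (87 to 146 bases), 2 in intron 1 and 2 in intron 14, and the one nearest the gene start, at 1.67 kb, also lay in the non-coding gene 1700028N14Rik. Of peaks at least 596 bases wide Map3k14 held 0, so its count rests on narrow peaks alone. Map3k15, which encodes ASK3 (ENSMUSG00000031303.8; chromosome X, 159988433 to 160123351, plus strand), held 4 peaks, 3 of them in intron 3 (36.8 kb) and 1 in intron 19. Map3k11 encodes the mixed lineage kinase MLK3 and was the densest gene of the tier (ENSMUSG00000004054.9; chromosome 19, 5688742 to 5702865, plus strand). It held 2 peaks in 14.1 kb, or 142 per Mb, and 66 of 1144 genes of similar length held as many or more (5.77%). The wider, of 1705 bases, lay in intron 3. Map3k3, an activator of MEK5, held 2 peaks in intron 6, and Map3k1 (MEKK1), Map3k7 (TAK1) and Map3k10 (MLK2) held 1 each.

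No sense peak was found in Map3k2, Map3k4, Map3k6, Map3k8, Map3k9, Map3k12, Map3k13, Map3k19 or Map3k21. Map3k13, which encodes the leucine zipper kinase LZK, is 139.1 kb long, about the length of Mapk4, and 67.0% of the 427 genes of similar length held a peak. It was the single member without a peak among the 11 of at least 120 kb. The other 10 (90.9%) held one, against 69.2% of the 1969 protein-coding genes of that length class. From 60 to 120 kb the order was opposite, with 50% of members against 55.8% of protein-coding genes. The shares were 38.9% against 32.3% from 20 to 60 kb, and 20% against 10.3% under 20 kb.

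MAP4Ks, which act upstream of MAP3Ks, had 4 genes of 5 with a peak, beside 2.41 from genes of similar length, and 10 peaks beside 8.55. Map4k5 (ENSMUSG00000034761.15; chromosome 12, 69803750 to 69893200, minus strand) held 5 peaks in 89.5 kb, and 48 of 616 genes of similar length held as many or more (7.79%). Its peaks formed a pair in intron 1, 5.12 and 6.20 kb from the gene start, a pair in intron 8 and a single peak in intron 27. In the intron 8 pair, the peak nearer the start fell in an exon of transcripts annotated as retained introns. Map4k3 held 3 peaks, and Map4k1 and Map4k4 held 1 each. The Map4k4 peak, of 2915 bases, was the widest of all member peaks. Map4k2 (14.5 kb) held none.

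Of the kinases that MAP kinases activate, Mapkapk2, which encodes MK2, the regulator of cytokine mRNA stability in the p38 branch, held 3 peaks (ENSMUSG00000016528.10; chromosome 1, 131053700 to 131097826, minus strand). They lay within intron 1, between 25.6 and 29.01 kb from the start, and 88 of 992 genes of similar length held as many or more (8.87%). Mapkapk3 and Mapkapk5 held none. Among scaffolds, binding proteins and other members, 3 of 8 held a peak, beside 2.66 from genes of similar length, and 7 peaks were found beside 8.28. Mapkap1, which encodes SIN1, a subunit of the mTORC2 complex, held 5 peaks (ENSMUSG00000038696.14; chromosome 2, 34406771 to 34624950, plus strand), and 98 of 259 genes of similar length held as many or more. They lay in introns 5, 8 and 10, with widths of 74 to 2638 bases. Mapk1ip1, the densest gene of the group (ENSMUSG00000041775.7; chromosome 7, 138835823 to 138846273, minus strand), held 1 peak of 1623 bases, which covered 15.5% of its 10.5 kb. Mapk1ip1l (24.9 kb) held 1 peak of 83 bases. The JNK scaffold genes Mapk8ip1, Mapk8ip2 and Mapk8ip3, as well as Mapkbp1 and Map3k7cl, held none.

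**Figure D4:**
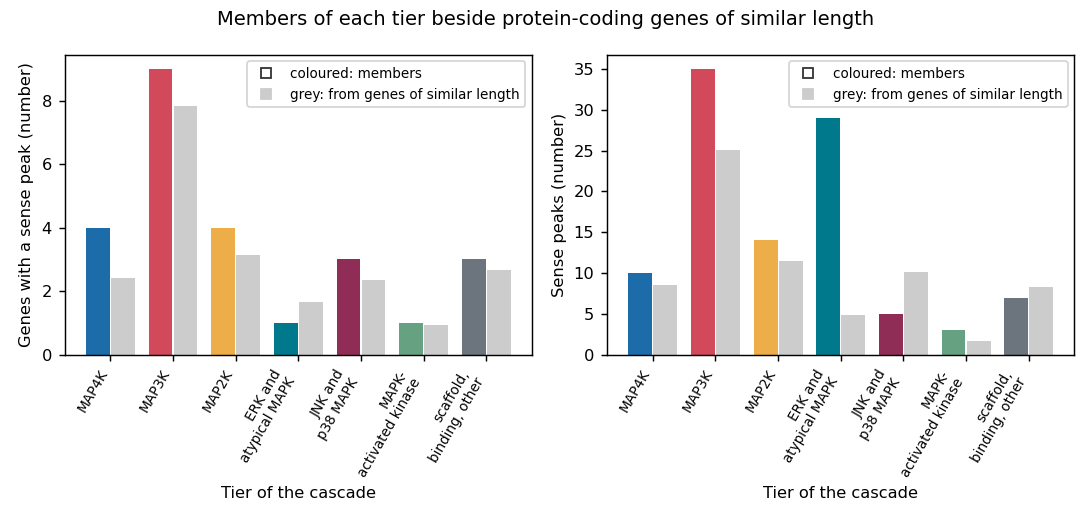
Genes with a sense peak (left, number) and sense peaks (right, number) in each tier of the cascade (x axis), with coloured bars for the members and grey bars for the sum over members of the share or mean in protein-coding genes within 10% of their length. The ERK and atypical tier has 29 peaks beside 4.90, all of them in Mapk4.

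By midpoint, peaks in these genes were almost wholly intronic. Introns held 100 of the 103 member peaks (97.1%), against 85.4% of 19691 pairs of a sense peak and a protein-coding gene. Exons held 3 (2.91%, Wilson interval 0.995 to 8.22), against 14.6% (14.2 to 15.1) in all protein-coding genes. Counting any peak with at least 1 base in an exon, 11 member peaks were exonic (10.7%, 6.07 to 18.1), against 21.4% (20.9 to 22.0) in all protein-coding genes. From the exonic shares in genes of similar length 12.4 exonic peaks would be counted, and from the exon part of each member's length 6.55. Mapk4 alone supplied 29 intronic peaks, and without it 3 of 74 peaks (4.05%) were exonic. These peaks share genes and are not independent, so the intervals are narrower than they should be. Member peaks lay a median of 4.94 kb from the nearest exon (intronic peaks, quartiles 1.07 and 13.7), with 24 within 1 kb and 32 more than 10 kb away. Most of those more than 10 kb away were Mapk4 peaks, in its introns of 93.6 and 32.6 kb. These distances were not set beside those in all protein-coding genes. In the reference transcripts, the longest intron held 44 peaks in 13 genes, and the first intron 33 peaks in 8 genes, 20 of these in Mapk4. The first intron of Mapk4 is also its longest (68.4% of the gene), so its 20 peaks are in both counts. The 3 Mapk10 peaks lay in no intron of its reference transcript and are in neither count. The longest intron made up between 11.8% (Map4k1) and 87.3% (Mapkapk2) of a member with a peak. Neither count was set beside all protein-coding genes, so no preference for these introns is read from them.

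The 3 exonic peaks lay in Map3k20, Mapk1ip1 and Map4k5. Sequences at their midpoints are shown because these are the only member peaks centred on annotated exons, so that their purine content can be read beside the counts. They were read from GENCODE M21 transcripts on the strand of the gene, 5′ to 3′. Capitals mark the purine-rich hexamers searched for, which are AGAAGA and its shifted forms GAAGAA and AAGAAG. The Mapk1ip1 stretch was cut to coding sequence and runs downstream from the start codon, which lies beside the midpoint of its peak. The hexamers were searched on the RNA strand only and can overlap each other.
Map3k20, last exon, coding sequence, chr2:72441727-72441926, plus strand: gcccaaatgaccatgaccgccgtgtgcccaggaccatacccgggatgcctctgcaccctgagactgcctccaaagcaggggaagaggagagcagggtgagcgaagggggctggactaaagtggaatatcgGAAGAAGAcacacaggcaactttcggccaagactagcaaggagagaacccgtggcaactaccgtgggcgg
Mapk1ip1, coding sequence, chr7:138836596-138836699, minus strand: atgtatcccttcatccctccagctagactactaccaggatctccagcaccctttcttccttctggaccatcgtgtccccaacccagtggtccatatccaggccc
Map4k5, retained-intron exon, chr12:69849180-69849379, minus strand: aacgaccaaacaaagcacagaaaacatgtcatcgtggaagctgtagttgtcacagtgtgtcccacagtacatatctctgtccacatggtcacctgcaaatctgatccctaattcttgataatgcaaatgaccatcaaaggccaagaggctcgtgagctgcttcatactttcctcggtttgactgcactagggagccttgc

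The Map3k20 stretch held an 8-base run with 3 overlapping hexamers and was 61.5% A and G. Over the whole Map3k20 peak, 1109 bases, the share was 51.9%, against 53.2% in the rest of the transcript. The Mapk1ip1 stretch held none and was 33.7% A and G, where the uncut central 200 bases were 40.5%. Transcript bases under the whole Mapk1ip1 peak held 4 hexamers, or 3.49 per kb, against 2.72 per kb in the rest of the transcript. The Map4k5 stretch held none and was 49.0% A and G. Among 1041 windows of 200 bases from the reference transcripts of the members, 25.4% held at least 1 of these hexamers. Over whole peaks, 11 member peaks had at least 50 bases in a transcript. The share of A and G in those bases was higher than in the rest of the transcript in 6 of the 11, with medians of 52.4% in peaks and 50.5% in the rest. In Map3k10, 382 transcript bases under a 2089-base peak were 57.3% A and G, against 49.8% in the rest. The order was opposite in all 3 peaks with an exonic midpoint. In Map4k5 the share was 43.9% under the peak and 54.9% in the rest, and in Mapk1ip1 48.0% and 54.1%. Of the 8 peaks with an intronic midpoint, 6 had a higher share under the peak than in the rest. Within Map3k20, peaks went both ways. Sequence of introns was not used here.

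Member peaks were narrower at the median, with no fewer very wide ones. Their median width was 478 bases (quartiles 233.5 and 1048), against 666 (316 and 1201) in all protein-coding genes. At least the median width of the whole list was reached by 45 of 103 (43.7%), against 54.1% in all protein-coding genes. Members differed in this. That width was reached by 2 of 10 peaks in Map2k5, 1 of 8 in Map3k5 and 0 of 4 in Map3k14. In Map3k20 8 of 12 peaks reached it, in Mapkap1 3 of 5 and in Mapk4 14 of 29. A width of 2000 bases or more was found in 8 peaks (7.77%, against 6.14% in all protein-coding genes), 3 of them in Mapk4 and 1 each in Map3k3, Map3k10, Map3k20, Map4k4 and Mapkap1. The smallest width in the list, 74 bases, was found in 4 member peaks (3.88%, against 1.73%), 2 in Mapk4 and 1 each in Mapkap1 and Mapkapk2.

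Other genes of the pathway, listed by role and not by the name rule, also held SAFB peaks, in a total close to that of genes of their length. Of 71 such genes 33 held a sense peak (46.5%), beside 27.4 from genes of similar length, and they held 104 peaks beside 102.8. Kinases downstream of MAP kinases had 6 of 9 with a peak, beside 4.42 from genes of similar length, and 28 peaks, beside 19.4, led by the RSK and MSK genes Rps6ka3 (10 peaks), Rps6ka5 (8, including 3 shared with another gene) and Rps6ka2 (5). MAP4K-like and MAP3K-like kinases had 6 of 10, beside 5.10, and 24 peaks, beside 25.7, with 10 peaks in Taok3, 5 in Pak1 and 3 each in Pak3 and Tnik. Ras, Raf and adaptor genes had 5 of 13, beside 5.84 from genes of similar length, and 11 peaks, beside 21.5, with 3 each in Araf, Braf and Ksr2.

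Phosphatases and nuclear targets held peaks about as often as genes of their length. Negative regulators of Ras had 5 of 8, beside 3.24 from genes of similar length, and 10 peaks, beside 12.01, led by Nf1 (4) with Rasa2 and Spry4 (2 each). MAP kinase phosphatases, which are short genes with a median of 13.0 kb, had 2 of 10, beside 2.23, and 4 peaks, beside 4.33, in Dusp16 (3) and Dusp10 (1). Nuclear targets had 4 of 14, beside 4.28, and 15 peaks, beside 14.0, led by Elk3 and Mef2a (6 each) and Ets1 (2). The 6 peaks of Elk3, an ETS factor phosphorylated by ERK, stood beside 18 of 825 genes of similar length with as many or more. Scaffolds and partners had 5 of 7, beside 2.34 from genes of similar length, and 12 peaks, beside 5.90. Spag9, a JNK scaffold, and Tab1 and Tab3, the partners of TAK1, held 3 each.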

How the data were processed

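The measurement was RNA immunoprecipitation followed by sequencing, in 9 libraries of 5 groups. The authors deposited 1 peak list without a header. Its positions are in bases of mm10, and its score, per the deposited file 500 in every peak, was not used. The submitters' processing notes name STAR, Subread and featureCounts; for the peak caller, threshold, pooling and use of control libraries, details were not given in the sources used here. Starts were taken as counted from 0. Genes, exons and transcript sequences came from GENCODE M21 (GRCm38, the assembly mm10 names). Python 3.11.15, pandas 2.3.3, numpy 2.4.6 and scipy 1.17.1 were used. The reference transcript of a gene is its protein-coding transcript with the longest coding sequence. Peaks lying in several sense genes counted in each. The assignment code was checked on simulated peaks with midpoints drawn inside genes that did not overlap (2000 of 2000 genes recovered their true count). That check did not cover peaks lying in several genes. Every member with a peak is named, with coordinates for the 8 with most peaks and the densest of each tier. Members and lists were chosen with earlier results of these data known. Alternatives covered assignment, peak width, length matching and exon definition. 1 member is counted in the totals and is not reported singly here.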

Additional observations from a re-analysis of the deposited data

Results flagged for a closer look

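Peaks on the strand opposite to the member genes were not part of the main counts. There were 11 antisense peaks, in 7 of the 54 members (13.0%, against 12.5% of all protein-coding genes). No annotated gene of their own strand covered any of them. Map3k20 held 3, Map3k12 and Map3k15 held 2 each, and Map4k4, Mapk4, Mapk10 and Mapk1ip1 held 1 each. In 6 of the 11 the antisense peak overlapped a sense peak of the same gene. In Map4k4, Mapk4 and Map3k20 the overlapping antisense peaks (4 in all, 105 to 224 bases wide) lay wholly within wide sense peaks, of 1514 to 2915 bases. The Mapk1ip1 antisense peak, of 854 bases, also lay wholly within the only sense peak of that gene, of 1623 bases. Over all member peaks, 6 of 103 (5.83%) overlapped a peak of the other strand, against 4.58% in all protein-coding genes. Map3k12, which held no sense peak, had antisense peaks of 2203 and 1241 bases. Values per library were not analysed here, and the source of these peaks was not tested.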

How the results depend on the processing

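Of 149 recomputed values over 30 results, 123 stayed within the limits set (a factor of 1.5 for counts) and 26 moved. The count of members with a peak was 26 with any overlap (Mapk8ip3 added) and 18 with peaks at least as wide as the list median (beside 16.7 from genes of similar length, and 20% of all protein-coding genes). With at least 2 peaks required it was 14 (25.9%, against 13.8% of all protein-coding genes). That last rule gave 2 MAP4Ks, 2 MAP2Ks, 1 JNK or p38 gene and 1 scaffold or other gene. Wide peaks alone gave 45 sense peaks in members beside 38.9 from genes of similar length, and 1 JNK or p38 gene. With wide peaks alone Mapk4 held 14, and 0.905% of genes of similar length held as many, while Map2k5 held 2 (44.6%) and Map3k5 1 (63.6%). A base in an exon, instead of the midpoint, gave 11 exonic peaks (10.7%, against 21.4% in all protein-coding genes). In the central 200 bases, 1 of the 3 peaks with enough transcript sequence had a higher share of A and G than the rest. No paired analysis was possible because the list holds no values per library. Depth per peak is unknown.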

Other observations

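The peak names carry running numbers that rise along every chromosome and strand, and some numbers are missing from the list. Between the first and last peak of Mapk4, 58.0% of the 50 numbers were listed, against a median of 21.02% (quartiles 13.6 and 32.0) in the 992 protein-coding genes with at least 5 peaks, of which 50 had a higher share. Map3k20 stood at 21.8% of 55 numbers, Map3k5 at 14.0% of 57, Map4k5 and Mapkap1 at 12.5% of 40 each, and Map2k5 at 11.4% of 88. Whether each number stands for a call that was later dropped is not given in the sources used here.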
